A study of Mus musculus with 6 samples.

Results

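The 39 genes described here encode secreted and membrane-bound proteases that cut the extracellular matrix, the inhibitors that hold them in check, and the genes of plasminogen activation. They are a chosen set of these gene families, picked by name with earlier results of these data known, and they comprise 16 matrix metalloproteinases, 4 tissue inhibitors of metalloproteinases, 15 ADAMTS proteases and 4 genes of plasminogen activation, out of 18460 genes listed in at least 1 tumor. RNA from 6 mouse breast tumors was sequenced to ask how the transcriptome differs between the test and the control group. The control group was PyMTtg;Rag1KO + CD4+ T cells and the test group was K14-TSLPtg;PyMTtg;Rag1KO + CD4+ T cells, with 3 tumors each, numbered 1 to 3. All animals were Balb/c, carried the polyoma middle T oncogene under the mammary tumor virus promoter, lacked their own mature T and B cells through loss of Rag1, and received sorted CD4+ T cells from spleens of other mice when they were 4 weeks old. Tumors were taken at weeks 18 to 20. The groups therefore differed by the Tslp transgene, which the keratin K14 promoter drives in basal keratinocytes.

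Matrix metalloproteinases are zinc enzymes made as inactive precursors, and between them they cut collagens, elastin, proteoglycans and basement membrane. Tissue inhibitors bind the active enzymes one to one, and TIMP2 also takes part in activation, because it links the precursor of MMP2 to MMP14 at the cell surface. ADAMTS proteases process procollagens and cleave proteoglycans such as versican and aggrecan, and plasminogen activators make plasmin, which degrades fibrin and can activate some metalloproteinase precursors. In mammary tumors much of this machinery is known to be made by fibroblasts and macrophages, with a smaller part made by epithelial cells.

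Total expected counts, which are estimates of the reads from each gene, ran from 8373390 to 9449565 per tumor, and 3 counts, taken here as the smallest level that a library can show, equalled 0.317 to 0.358 CPM, the count scaled to library size. Intervals from depth cover counting error only. Levels are given as CPM scaled by TMM for one gene across tumors and as FPKM, which is divided by gene length, for one gene against another. Tslp had 2, 2 and 3 counts in the control tumors and 12, 7 and 2 counts in the test tumors, so that test tumor 3 was at the control level and the transgene could not serve as a check of the labels. Rag1 had 27, 4 and 10 counts in the control and 6, 12 and 9 counts in the test tumors, and which part of the gene these reads came from was not tested. Epithelial markers were abundant in all 6 tumors, with Epcam, a surface protein of epithelia, at 281 to 797 CPM. T cell markers were low. Cd3e, a chain of the T cell receptor complex, was near the floor at 1 to 7 counts per tumor, and Cd4 had 9 to 35 counts.

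Control tumor 2 stood apart from the other control tumors and must be read beside every result below. Of the 33 members that passed the filter on low counts, it lay below both other control tumors for 26, or 78.8%, against 41.1% of all 13706 tested genes. Its median level over these members, as log2(CPM + 0.5) centered on each gene's mean, was -0.34, whereas control tumors 1 and 3 were at 0.57 and 0.56. Test tumors 1, 2 and 3 were at -0.71, -0.20 and -0.25, so control tumor 2 lay within the range of the test group. The counts over the members and the genes with the main differences are therefore also given without it.

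**Figure D1:**
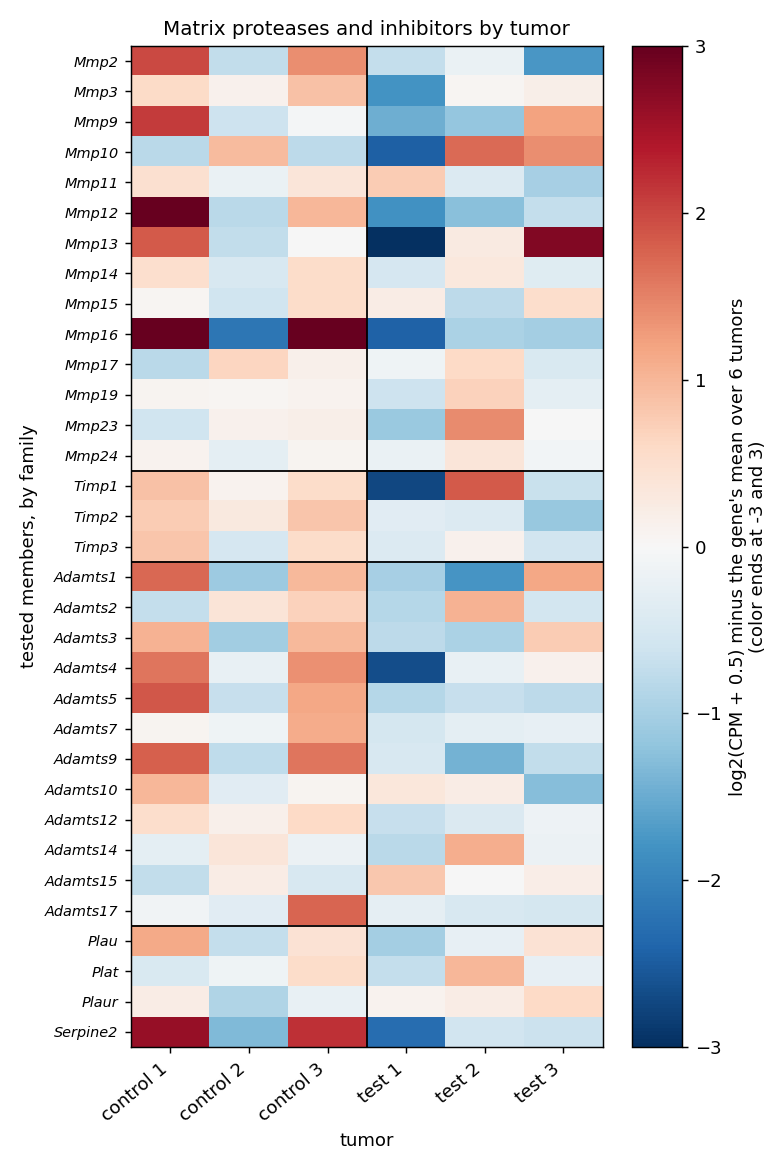
Level of each of the 33 tested members in the 6 tumors. Rows are genes grouped by family, columns are tumors, and color is log2(CPM + 0.5) minus the gene's mean over the 6 tumors, with the scale ending at -3 and 3. Most of the strong red lies in control tumors 1 and 3, while control tumor 2 resembles the test tumors for many genes.

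Matrix proteases and their inhibitors were mostly lower in test tumors, by an amount that differed widely between genes and that did not pass the test adjusted over all genes. Of the 33 tested members, 24 (72.7%) had a lower and 9 a higher estimate in test tumors. Over all 13706 tested genes, 6648 (48.5%) had a lower and 7058 a higher estimate. Counts of lower and higher genes in the families and lists below are to be read against this share. The median log2 fold change of the members, test minus control, was -0.65 against 0.02 over all tested genes. Without control tumor 2, 25 of the members had a lower estimate and the median was -0.96, against 0.04 over all genes. Over all 39 members, including those too low to test, the mean CPM was lower in test tumors for 28 and higher for 11. No member passed an adjusted p of 0.05 in edgeR's quasi-likelihood test, and neither did any other gene (0% of 13706). The lowest adjusted p was 0.407 among members and 0.394 among all genes. At an unadjusted p under 0.05 there were 8 members, or 24.2% of those tested, and all 8 were lower in test tumors, namely Timp2, Mmp12, Mmp16, Adamts5, Adamts9, Serpine2, Mmp2 and Adamts12. The share of all tested genes at that level was 8.41%, made up of 5.26% lower and 3.15% higher. Because the tumors are whole tissue, fewer cells of a type and less RNA per cell cannot be told apart in these differences.

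The groups did not overlap for Timp2, Adamts7 and Adamts12, in each case with all 3 test tumors below all 3 control tumors. These 3 members are 9.09% of those tested, which is close to the background of 5.86% lower and 6.12% higher, or 12% in either direction. For the other tested members at least 1 tumor of one group lay within the range of the other, most often control tumor 2. Without control tumor 2, 16 members were lower without overlap, or 48.5%, against 19.1% of all genes, and 1 member, Adamts15, was higher without overlap. Since control tumor 2 stood out by being low for these same members, leaving it out must widen their separation more than that of other genes, and the contrast with the background is not separate support.

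The adjusted calls depended on this tumor and on the tool. Without control tumor 2, edgeR called 4 members at an adjusted p of 0.05, namely Mmp16 (0.0179), Adamts5 (0.0262), Adamts9 (0.032) and Serpine2 (0.0444), where 1.28% of all genes were called. In the same comparison 12 members were lower at an unadjusted p under 0.05, against 9.06% of all genes, and Adamts15 was higher. The same limit applies to these counts. With all 6 tumors, DESeq2 called 5 members, Mmp16, Mmp12, Serpine2, Timp2 and Adamts9, with adjusted p of 0.0034, 0.00536, 0.0168, 0.0219 and 0.0461, where 2.28% of all genes were called.

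**Figure D2:**
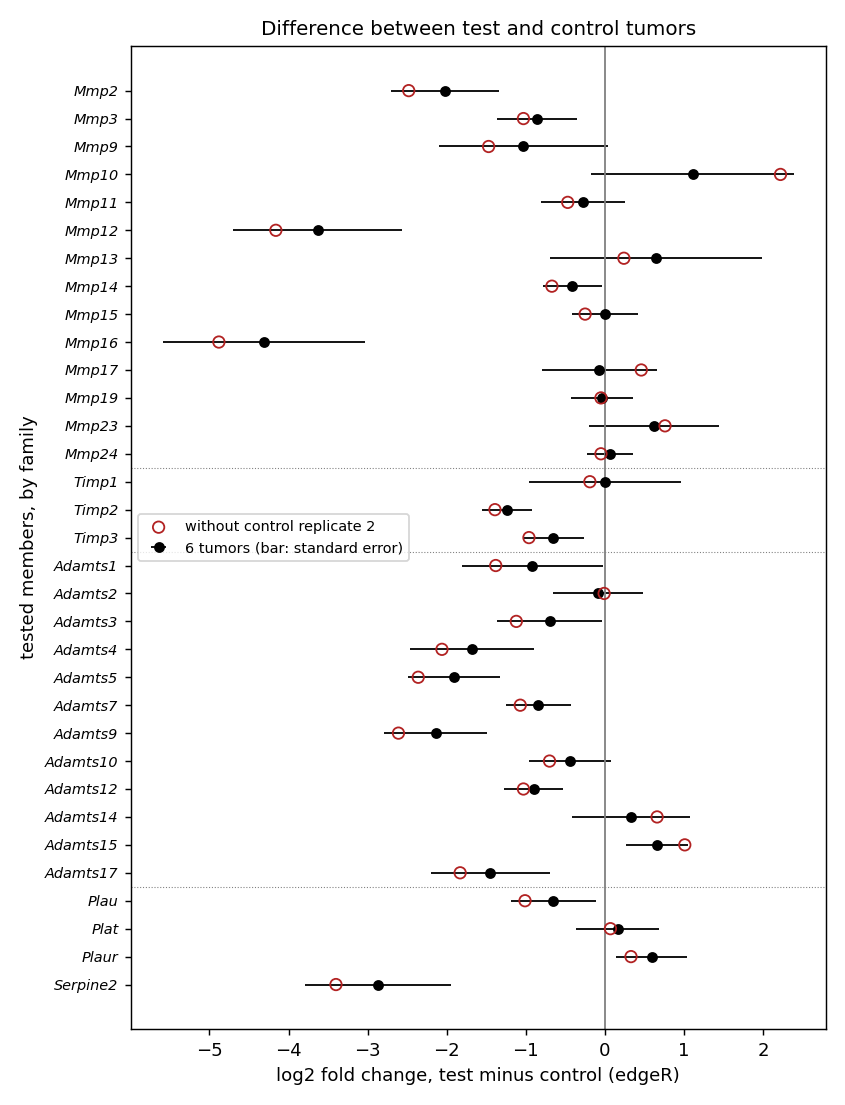
Log2 fold change of each tested member, test minus control, with all 6 tumors (black, bar: 1 standard error) and without control replicate 2 (open red circle). Estimates run from -4.31 for Mmp16 to 1.11 for Mmp10, and leaving out control replicate 2 moved most of the lower genes further from 0.

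Levels per gene length differed by more than 3 orders of magnitude between members. Serpine2 had the highest mean level over the 6 tumors at 165 FPKM, followed by Mmp14 at 122, Timp2 at 109 and Mmp2 at 94.6 FPKM. In total 10 members were at 10 FPKM or more, 21 were between 1 and 10, and 8 were below 1. The span between tumors was as uneven, since Mmp14 and Mmp19 varied 2.08-fold and 2.33-fold from the lowest to the highest tumor, Mmp24 1.46-fold, and Mmp16 and Mmp13 91.1-fold and 187-fold. Order among the leading genes changed with the tumor: Serpine2 was first in control tumors 1 and 3 at 458.4 and 380.47 FPKM, while at 33.14 FPKM in control tumor 2 it stood below Mmp14, Timp2 and Mmp2.

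Timp2 gave the clearest separation between the groups. Its product inhibits most metalloproteinases and also assists the activation of MMP2. It measured 612, 441 and 637 CPM in control tumors 1, 2 and 3, and 283, 272 and 163 CPM in test tumors 1, 2 and 3. All test tumors lay below all control tumors, control tumor 2 included. The means were 563 ± 107 and 239 ± 66.3 CPM (SD, n = 3 each), and the log2 fold change was -1.24 with a standard error of 0.32. In edgeR's test the unadjusted p was 0.00532 and the adjusted p 0.407. Leaving out any one tumor kept the log2 fold change between -1.39 and -1.01. The gene lies on chromosome 11 from 118301061 to 118355411 of the mouse genome build GRCm38.p6, on which all positions here are given.

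Mmp2 encodes gelatinase A, which cuts denatured collagen and type IV collagen of basement membranes. It measured 783, 120 and 529 CPM in the control tumors and 122, 173 and 59.4 CPM in the test tumors. Control tumors 1 and 3 stood above all test tumors, whereas control tumor 2 lay within the test range. The log2 fold change was -2.02 with a standard error of 0.68 and an adjusted p of 0.483 in edgeR's test, against -2.48 and 0.0669 without control tumor 2. Mmp9, the other gelatinase and typical of myeloid cells, was far lower, at 15, 1.84 and 2.98 CPM in control tumors and 0.807, 1.1 and 7.75 CPM in test tumors. Its groups overlapped, and its log2 fold change of -1.03 ± 1.07 (standard error) became 0.42 without control tumor 1 and -2.76 without test tumor 3.

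Mmp14 encodes a membrane-anchored collagenase that activates the MMP2 precursor. Its level was 433, 220 and 448 CPM in control and 215, 380 and 236 CPM in test tumors, with overlap and a log2 fold change of -0.41 ± 0.37 (standard error). Of the other membrane-anchored enzymes, Mmp15 did not separate the groups at 122 to 273 CPM in control and 107 to 268 CPM in test tumors. Mmp16, in contrast, had the largest difference of any member. It measured 81, 1.08 and 56.5 CPM in control tumors and 0.807, 3.17 and 2.97 CPM in test tumors, so that control tumors 1 and 3 were high and the other 4 tumors low. The log2 fold change was -4.31 with a standard error of 1.28 and an adjusted p of 0.454 in edgeR's test, which became -4.88 and 0.0179 without control tumor 2 and -3.63 and 1 without control tumor 1. In counts, the low tumors had 10 reads in control tumor 2 and 7, 26 and 28 in the test tumors.

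Mmp24 and Mmp17 had log2 fold changes of 0.07 and -0.07, the latter on at most 20 counts per tumor. Mmp11, also called stromelysin 3 and typical of tumor stroma, measured 11.1, 6.81 and 10.2 CPM in control and 13.7, 5.74 and 3.71 CPM in test tumors. Its groups overlapped because test tumor 1 was the highest of all, while test tumors 2 and 3 were below every control tumor. The log2 fold change was -0.28 ± 0.53 (standard error), or -0.99 without test tumor 1. Mmp19 (-0.04) and Mmp23 (0.62) likewise overlapped.

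The other inhibitors behaved less uniformly than Timp2. Timp1 encodes an inducible inhibitor and measured 36.6, 21.1 and 29.1 CPM in control and 2.54, 72 and 12.1 CPM in test tumors, where test tumor 2 was the highest and test tumor 1 the lowest of all 6. The means were equal at 28.9 CPM, with an SD of 7.74 in control and 37.7 in test tumors. Timp3, whose product is bound to the matrix and also inhibits ADAMTS proteases, measured 256, 102 and 213 CPM in control and 109, 157 and 96.3 CPM in test tumors. Control tumors 1 and 3 exceeded all test tumors, and the log2 fold change was -0.65 ± 0.38 (standard error).

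Summed over each family, metalloproteinases amounted to 554, 211 and 495 FPKM in control and 198, 269 and 266 FPKM in test tumors. The tissue inhibitors summed to 246, 172 and 260 FPKM in control and 110, 180 and 78.2 FPKM in test tumors. The ratio of the sums overlapped, at 2.25, 1.22 and 1.9 in control and 1.8, 1.5 and 3.4 in test tumors. The ratio of Mmp14 to Timp2 did not overlap, being 0.994, 0.701 and 0.989 in control and 1.07, 1.97 and 2.04 in test tumors. An overlap-free split of 3 against 3 is the most that 6 tumors can show, and this ratio was singled out after its values were seen. These are ratios of RNA and not of active protein.

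**Figure D3:**
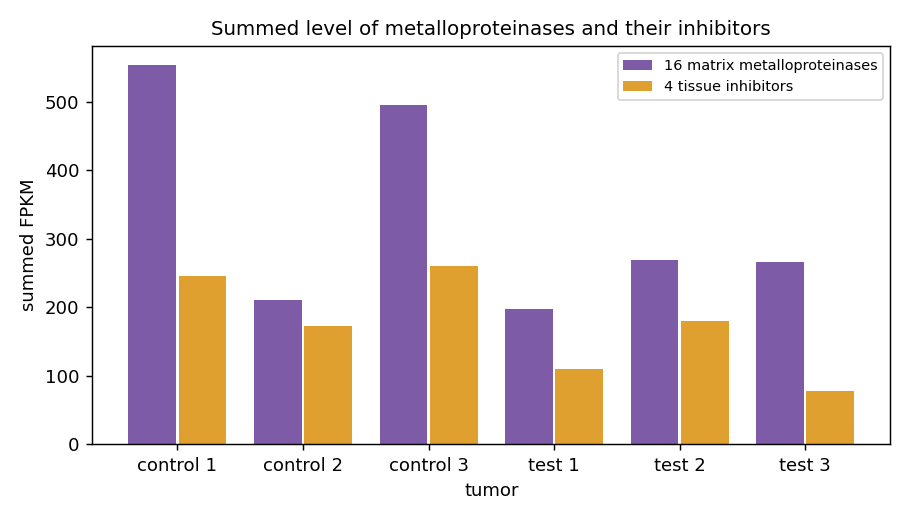
Summed FPKM of the 16 matrix metalloproteinases (purple) and the 4 tissue inhibitors (orange) in each tumor. Both sums were highest in control tumors 1 and 3, and the inhibitor sum was lowest in test tumor 3 at 78.2 FPKM.

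**Figure D4:**
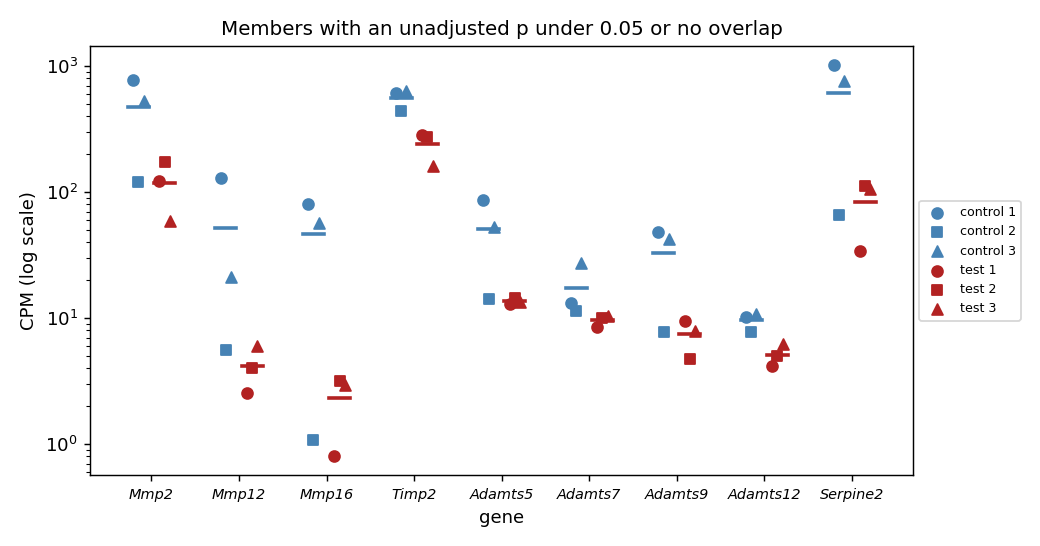
CPM, on a log axis, of the members with an unadjusted p under 0.05 or with no overlap between groups. Points are single tumors, blue for control and red for test, and short lines are group means; the blue square of control tumor 2 lies among the red points for most genes but not for Timp2, Adamts7 and Adamts12.

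Of the metalloproteinases, 5 members lie on chromosome 9 between position 7272514 (the start of Mmp13) and 7699585 (the end of Mmp7). Only members are described here, and other genes may lie between them. The members of this cluster are the collagenase gene Mmp13, the macrophage elastase gene Mmp12, the stromelysin genes Mmp3 and Mmp10, and the matrilysin gene Mmp7. Promoters of such genes are textbook targets of AP-1, the dimer of Fos and Jun proteins. The letters TGAGTCA or their reverse complement TGACTCA, the AP-1 motif, were searched in the 250 bases before each RefSeq start site (GRCm38.p6), for the 26 members with a promoter in that table. Of the 29 promoters of these members, 6 held the motif, 1 for each of the 5 cluster members and 1 for Plaur. Mmp12 and Mmp7 each have another listed start whose promoter does not hold it, and for Mmp12 this is the start at the beginning of the gene, position 7344397. Its share was 4.46% of all 32851 promoters of the same length and 3.45% of promoters of tested genes. The 100 bases before the start are shown to compare where the motif sits, 5′ to 3′ on the strand of the gene, with the motif in capitals.

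Mmp3, plus strand, chr9:7445722-7445821: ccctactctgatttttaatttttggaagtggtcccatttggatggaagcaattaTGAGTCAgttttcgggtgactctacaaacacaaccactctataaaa
Mmp7, plus strand, the earlier of its listed starts, chr9:7691990-7692089: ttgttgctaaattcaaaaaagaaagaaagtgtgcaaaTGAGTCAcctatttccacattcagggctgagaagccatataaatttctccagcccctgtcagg
Mmp10, plus strand, chr9:7502242-7502341: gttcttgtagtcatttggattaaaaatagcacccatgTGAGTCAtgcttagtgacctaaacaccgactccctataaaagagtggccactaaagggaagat
Mmp12, plus strand, the later of its listed starts, chr9:7347274-7347373: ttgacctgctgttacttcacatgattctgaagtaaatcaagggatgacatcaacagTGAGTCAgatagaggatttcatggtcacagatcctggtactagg
Mmp13, plus strand, chr9:7272414-7272513: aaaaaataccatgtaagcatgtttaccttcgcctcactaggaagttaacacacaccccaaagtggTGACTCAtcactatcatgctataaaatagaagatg
Plaur, plus strand, chr7:24462383-24462482: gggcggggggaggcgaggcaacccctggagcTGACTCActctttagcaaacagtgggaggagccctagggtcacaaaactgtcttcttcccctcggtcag

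The motif began 46 bases before the start of Mmp3, 63 bases before that of Mmp7 and of Mmp10, 44 bases before that of Mmp12, 35 bases before that of Mmp13 and 69 bases before that of Plaur. The start used for Plaur lies inside the gene, which begins at position 24460937. A match is a description of these letters and not of bound protein.

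The cluster members did not vary alike between tumors. Mmp12, an elastase typical of macrophages, measured 130, 5.62 and 21.1 CPM in control and 2.54, 4.03 and 6.05 CPM in test tumors. Control tumor 1 alone carried most of its control mean, since the log2 fold change was -3.63 with all tumors and -1.67 without control tumor 1. Its standard error was 1.07 and its adjusted p 0.454 in edgeR's test, and without control tumor 2 the fold change was -4.16 with an adjusted p of 0.0617.

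Mmp13 measured 82.2, 13.3 and 22.4 CPM in control and 0.807, 27 and 156 CPM in test tumors. Test tumors 1 and 3 were the lowest and the highest of all 6. Its log2 fold change of 0.65 ± 1.34 (standard error) turned to -1.48 without test tumor 3 and was 1.78 without control tumor 1. Mmp3, a stromelysin made by fibroblasts, measured 43.2, 31.8 and 53.3 CPM in control and 7.96, 30 and 32.6 CPM in test tumors. Only control tumor 2 lay below any test tumor, namely test tumor 3, and the log2 fold change was -0.86 ± 0.51 (standard error).

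Mmp10 had low levels of 1.04, 4.76 and 1.07 CPM in control and 0, 8.3 and 6.58 CPM in test tumors, and its log2 fold change was 1.11 ± 1.28 (standard error), or 2.22 without control tumor 2. Mmp7, made by epithelial cells, was too low to test, and control tumor 2 held 85 of its counts against 0 to 19 in the other tumors. Test tumor 1 was thus the lowest tumor for Mmp3, Mmp10, Mmp12 and Mmp13. The same tumor was the lowest of all 6 for 19 of the 33 tested members, or 57.6%, against 17.7% of all tested genes.

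**Figure D5:**
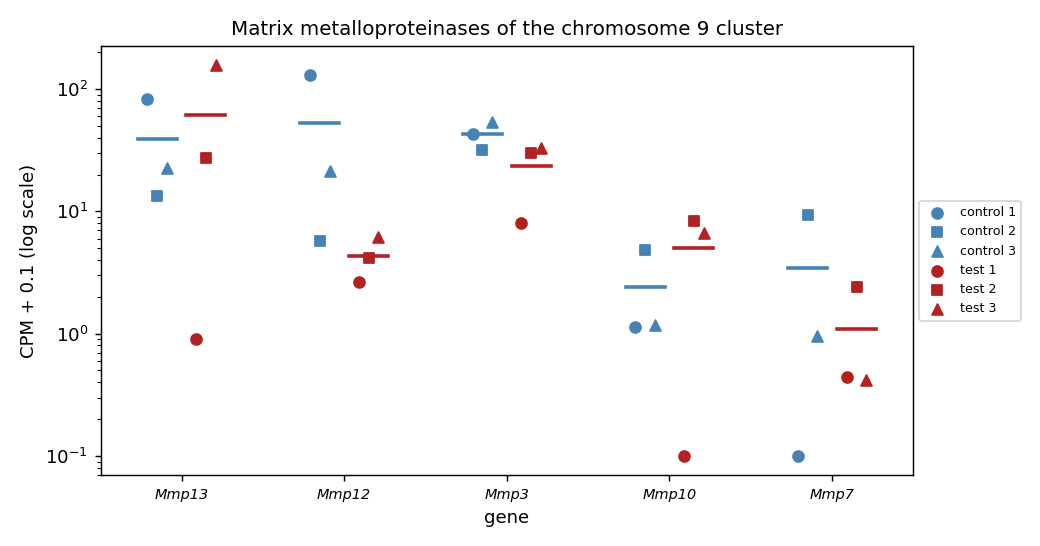
CPM + 0.1, on a log axis, of the 5 members in the chromosome 9 cluster in each tumor. Blue is control, red is test and short lines are group means; test tumor 1 is the lowest point for Mmp13, Mmp12, Mmp3 and Mmp10, and Mmp7 is highest in control tumor 2.

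ADAMTS proteases were lower in test tumors for 10 of the 12 tested, with a median log2 fold change of -0.87. Adamts5, which cleaves aggrecan and versican, measured 86.9, 14.3 and 53.1 CPM in control and 12.9, 14.5 and 13.5 CPM in test tumors. The test tumors and control tumor 2 were nearly alike, and control tumors 1 and 3 stood well above them. Its log2 fold change was -1.91 with a standard error of 0.58 and an adjusted p of 0.454 in edgeR's test, against -2.36 and 0.0262 without control tumor 2 and -1.31 and 1 without control tumor 1.

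Adamts9, another proteoglycan-cleaving enzyme, measured 48.7, 7.79 and 42.3 CPM in control and 9.57, 4.76 and 7.96 CPM in test tumors. Control tumor 2 again lay within the test range. The log2 fold change was -2.14 with a standard error of 0.65 and an adjusted p of 0.454 in edgeR's test, against -2.61 and 0.032 without control tumor 2 and -1.75 and 1 without control tumor 1. Adamts4 (-1.68) and Adamts1 (-0.92), which cut the same substrates, had lower estimates whose unadjusted p did not pass 0.05. The estimate of Adamts1 was -0.27 without control tumor 1 and -2.29 without test tumor 3. Adamts15, also a versicanase, had the highest estimate of the family at 0.66 ± 0.39 (standard error).

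Adamts7 and Adamts12, which both cleave cartilage oligomeric matrix protein, were lower without overlap. Adamts12 measured 10.3, 7.79 and 10.8 CPM in control and 4.15, 5 and 6.26 CPM in test tumors, which gave a log2 fold change of -0.90, a standard error of 0.37 and an adjusted p of 0.558 in edgeR's test, against -1.03 and 0.312 without control tumor 2. Adamts7 measured 13.2, 11.4 and 27.3 CPM in control and 8.53, 10 and 10.4 CPM in test tumors. The gap between its lowest control and highest test tumor was about 1 CPM, and its log2 fold change was -0.84 with an adjusted p of 0.648 in edgeR's test. Comp, the gene of their shared substrate, itself had a lower estimate in test tumors, but with overlap through control tumor 2, and is given below.

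The procollagen-processing enzymes Adamts2, Adamts3 and Adamts14 had log2 fold changes of -0.09, -0.70 and 0.33. Adamts10, which acts on fibrillin microfibrils, had -0.44, and Adamts17 had -1.45, of which control tumor 3 carried the control mean at 7.56 CPM against 1.74 and 1.41 CPM in control tumors 1 and 2. Without control tumor 3 the Adamts17 estimate was -0.28, and without test tumor 3 that of Adamts3 was -1.47. None of these 5 passed an unadjusted p of 0.05.

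Of the 4 genes of plasminogen activation, Serpine2 alone had an unadjusted p under 0.05. It encodes protease nexin 1, which inhibits urokinase, tissue plasminogen activator and thrombin. Its level was 1015, 66.2 and 763 CPM in control and 33.9, 112 and 106 CPM in test tumors. Control tumors 1 and 3 were higher than every other tumor, and control tumor 2 lay within the test range. The log2 fold change was -2.87 with a standard error of 0.92 and an adjusted p of 0.473 in edgeR's test, against -3.40 and 0.0444 without control tumor 2 and -2.31 and 1 without control tumor 1. The gene lies on chromosome 1 from 79794317 to 79858665.

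Plau, which encodes urokinase, measured 53, 14.1 and 32.1 CPM in control and 11.4, 19.7 and 31.9 CPM in test tumors. Its groups overlapped, with a log2 fold change of -0.65 ± 0.54 (standard error). Plat, which encodes tissue plasminogen activator, measured 10.2, 12.8 and 20.8 CPM in control and 8.42, 28.6 and 11.8 CPM in test tumors, also with overlap.

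Plaur, which encodes the cell surface receptor of urokinase, was among the few members with a higher estimate. It measured 6.94, 2.92 and 5.01 CPM in control and 6.34, 6.96 and 9.13 CPM in test tumors. Control tumor 1 lay within the test range in CPM. In FPKM it was just below that range, at 4.69 against 4.74 in test tumor 1. The log2 fold change was 0.59 ± 0.45 (standard error).

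The remaining 6 members did not pass the filter on low counts and were not tested. Besides Mmp7, these were Mmp28 at 2 to 14 counts, Adamts6 at 3 to 13, Adamts18 at 1 to 30 and Adamts20 at 0 to 8 counts per tumor. Timp4, an inhibitor known from fat and heart tissue, had 39 counts in test tumor 1 and at most 1 count in any other tumor. In the same tumor the summed level of 10 adipocyte markers was 950 CPM against 133 to 343 CPM in the other 5, and its part in the Timp4 value was not tested.

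Other genes of the pathway, which are not members, were counted by role with the same test. With all 6 tumors none of them passed an adjusted p of 0.05. Without control tumor 2, edgeR called 4 of 26 matrix substrates, 1 of 22 other inhibitors and receptors, and 1 of 23 cathepsins and other matrix proteases. In that comparison 1.28% of all genes were called. With all 6 tumors, the shares of these lists at an unadjusted p under 0.05 are to be read against the 8.41% of all tested genes. Of 7 tested genes of the same families, 5 were lower, of which the ADAMTS-like genes Adamtsl4 (-1.07) and Adamtsl1 (-2.12) had an unadjusted p under 0.05. Mmp1a, Mmp1b, Mmp20 and Adamts13 are not listed in any of the tumors or are at 0. Of 8 tested ADAM sheddases, 7 were lower with a median of only -0.20, and Adam28 (-1.20) alone had an unadjusted p under 0.05. Cathepsins and other proteases that act on matrix were balanced, with 12 of 22 lower. Here Pcsk6, a proprotein convertase, was lower (-2.31) and Hpn, an epithelial membrane serine protease, was higher (1.07).

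Among 22 other inhibitors and receptors, 6 were lower and 5 higher at an unadjusted p under 0.05, or 50% in all. The lower ones included Reck (-3.47), a membrane-bound metalloproteinase inhibitor, A2m (-3.09), which encodes a broad protease trap, Mrc2 (-3.15), a collagen uptake receptor, and Slpi (-4.02), an inhibitor of leukocyte elastase. Reck measured 88.8, 4.65 and 113 CPM in control and 8.99, 4.88 and 4.67 CPM in test tumors, with the same low control tumor 2 as Serpine2 and Mmp16. The higher ones included Serpinb6a (0.97), Serpinb5 (0.84), Spint1 (0.88) and Serping1 (0.87), the inhibitor of complement C1.

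Of 26 tested matrix substrates, 19 had a lower estimate in test tumors, 9 of them at an unadjusted p under 0.05, or 34.6% of the list. None was higher at that level. Only 2 were lower without overlap and 0 higher, or 7.69%, against 12% of all tested genes in either direction. The median log2 fold change was -0.70, close to the -0.65 of the members. Comp measured 69.9, 0.541 and 46.3 CPM in control and 0.346, 1.71 and 0.212 CPM in test tumors, a log2 fold change of -5.69. Vcan, which encodes versican, measured 743, 37.5 and 277 CPM in control and 60.5, 38.6 and 31.3 CPM in test tumors. Eln (elastin, -2.83) and Lamb1 (a laminin chain, -1.18) had lower estimates too. For Comp, Vcan and Eln control tumor 2 lay within the test range. Eln was at 75.9 CPM in control tumor 2 and at 124, 58.6 and 29.5 CPM in the test tumors. Lamb1 did not overlap, with 108 CPM in its lowest control and 99.4 CPM in its highest test tumor. Without control tumor 2, a comparison added after the data were seen, 11 of 26 substrates were lower and 0 higher at that level, with a median of -1.03. Of 22 other inhibitors and receptors, 9 were lower and 5 higher. In that comparison 9.06% of all genes were lower at that level, and 14.3% passed it in either direction. Control tumor 2 lay below both other control tumors for 73.1% of the substrates and 63.6% of the other inhibitors, against 41.1% of all genes. These counts are therefore not separate support either.

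Cell type markers are given as measurements, whether or not they moved with the members, and their part in the results was not tested. Luminal epithelial markers summed to 2296, 4320 and 2062 CPM in control and 5746, 5558 and 5578 CPM in test tumors, without overlap, and 7 of 8 had a higher estimate in test tumors. Control tumor 2 was again the control nearest to the test group. Fibroblast markers were not lower as a list, at 333, 263 and 273 CPM in control and 496, 541 and 224 CPM in test tumors, with 6 of 10 higher and a median log2 fold change of 0.39, or 0.56 without control tumor 2.

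Macrophage markers overlapped, at 599, 401 and 855 CPM in control and 392, 852 and 505 CPM in test tumors, with 7 of 10 lower. Basal and myoepithelial markers summed to 806, 473 and 3124 CPM in control and 1252, 690 and 525 CPM in test tumors, with 7 of 8 lower, among them Trp63 (-3.15). Neutrophil markers ranged from 58.6 to 113 CPM in control and from 25.7 to 71.2 CPM in test tumors, and endothelial markers from 103 to 150 and from 130 to 151 CPM. Mast cell markers summed to 147 to 254 CPM in control and 164 to 502 CPM in test tumors. Only 2 of these 8 markers could be tested, with 1 lower and 1 higher estimate in test tumors and a median log2 fold change of -0.59.

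Muscle and fat around the gland differed between tumors as well. Skeletal muscle markers summed to 17.5, 217 and 20.6 CPM in control and 1037, 209 and 131 CPM in test tumors, and all 10 had a higher estimate in test tumors. Adipocyte markers were at 133, 229 and 168 CPM in control and 950, 343 and 138 CPM in test tumors. Test tumor 1, the lowest tumor for most members, was thus the highest for both, and control tumor 2 was the control with the most of both. T cell markers summed to only 3.89 to 6.5 CPM in control and 3.23 to 5.37 CPM in test tumors, with Trac, Trbc1 and Trbc2 not listed or at 0.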

How the data were processed

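Per tumor, the authors deposited expected counts, without normalization, and FPKM values, which they normalized for gene length and depth, with the gene length in bases. Bowtie, BWA, RSEM and the build mm10 are named in the submitters' processing notes, without versions or roles. Genes absent from a tumor were set to 0. Gene identifiers were matched to RefSeq for 18400 of 18460 genes. The tumors came from separate mice.

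After rounding, counts were fitted with edgeR 4.0.16 under R 4.3.3 (filterByExpr, TMM, quasi-likelihood test of 3 test against 3 control tumors without covariates, Benjamini-Hochberg adjustment over 13706 genes). The common biological coefficient of variation was 0.434. The standard error is the size of the log2 fold change divided by the square root of F. Tests were two-sided, and the script was tested on simulated data. Alternatives were DESeq2 1.42.0, RLE scaling, no filter, at least 10 counts in every tumor, the label number as a replicate block, leaving out each tumor, and limma 3.58.1 (limma-trend) on FPKM after adding a pseudocount of 1 or 0.1 and taking log2, where the mean FPKM was 1 or more.

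The members and lists were chosen with earlier results of these data known. Values in every tumor are given for members with an unadjusted p under 0.05 or without overlap and for 13 members chosen for their role; pathway genes are named by the smallest unadjusted p, at most 4 per list and direction. Mmp10, Mmp15, Mmp7, Timp4 and the ratio of Mmp14 to Timp2 were described in addition after their values were seen. Protein sequence patterns were not searched.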

Additional observations from a re-analysis of the deposited data

How the results depend on the processing

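With 0 members past an adjusted p of 0.05 and 8 past an unadjusted p of 0.05 in the edgeR test, DESeq2 called 5 members at the adjusted level, and leaving out 1 tumor gave 0 to 4, with 4 only without control tumor 2. The replicate number as a block left 3 members with an unadjusted p under 0.05 (Timp2, Adamts5 and Adamts9), which is 9.09% against 7.7% of all genes, and leaving out 1 tumor gave 6 to 13, or 17.6% to 39.4% against 4.65% to 14.3%. The labels state no pairing by number, and the tumors came from different mice. Deviations of same-numbered tumors from their group means correlated at -0.03, 0.11 and -0.14, and not every tumor correlated best with its own number. With so few tumors per group this check cannot exclude a pairing. The 3 members without overlap became 6 on either FPKM scale (19.4% against 11.4% of all genes). Those added were Adamts5 and Mmp3, lower in test tumors, and Plaur, higher in test tumors. With 1 tumor left out, 3 to 17 members did not overlap. That was 51.5% against 35.3% of all genes without control tumor 2, and 8.82% to 20.6% against 15.5% to 23.9%, each below its background, without any other tumor. The cause of these differences was not tested. The number of members lower in test tumors (22 to 28) and their median (-0.96 to -0.33) kept their direction when 1 tumor was left out.

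Of 33 tested members, 20 kept their direction under every alternative that could test them. Near 0 from the start, Mmp15 was at -0.00025 without a filter, -0.03 on both FPKM scales and -0.02 with the block, where Mmp17 was at 0.02. Timp1 was at 0.01 with at least 10 counts in every tumor. Mmp13 was at -0.37 and -0.84 on the FPKM scales with pseudocounts of 1 and 0.1. With 1 tumor left out, the log2 fold change ran from -2.76 to 0.42 for Mmp9, -1.48 to 1.78 for Mmp13, -1.97 to 0.54 for Timp1, -0.27 to 0.31 for Mmp15, -0.71 to 0.04 for Adamts10, -0.52 to 0.49 for Plat, -0.59 to 0.46 for Mmp17, -0.12 to 0.18 for Mmp24, -0.92 to 0.23 for Adamts2, -0.55 to 0.21 for Mmp19, -0.53 to 1.10 for Mmp23, -0.65 to 0.75 for Adamts14 and -0.99 to 0.07 for Mmp11. At this depth 6 members had too few counts to be tested.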
